A study of Mus musculus with 9 samples.

Results

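The LC3 and GABARAP genes and the ATG4 proteases that process their products were followed at the mRNA level in 3 mouse striatal cell lines. The set holds 9 genes chosen by symbol, among 36410 listed genes. Of these, 5 belong to the ATG8 family: Map1lc3a and Map1lc3b (LC3A and LC3B), Gabarap, Gabarapl1 and Gabarapl2. The other 4 are Atg4a, Atg4b, Atg4c and Atg4d. All 9 passed the filter on low counts, as did 13508 genes in total. The lines were control (STHdhQ7/Q7, with knock-in huntingtin of 7 repeats on both alleles), HD-het (STHdhQ7/Q111, with 7 repeats on one allele and 111 on the other) and HD-homo (STHdhQ111/Q111, with 111 repeats on both alleles), all of strain C57/BL6 and with 3 libraries each. They are immortalized lines derived from the embryonic striatum and the labels give no treatment. The study describes the embryos of the control line as WT. Each genotype was represented by 1 line, so that the number of expanded alleles and other differences between the lines cannot be told apart.

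ATG8 proteins are small ubiquitin-like proteins that are attached to phosphatidylethanolamine in the growing autophagosome membrane, where they recruit cargo receptors and help the membrane to expand, close and fuse with lysosomes. Each is made as a precursor, and an ATG4 protease removes the residues after a C-terminal glycine, which is the residue that is then joined to the lipid. The same proteases take the lipid off again and so return ATG8 proteins to the cytosol. In striatal neurons, where huntingtin itself has been linked to cargo recognition and autophagosome transport, LC3 lipidation is the common readout of autophagy, but that readout is of protein, whereas the values here are of mRNA.

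The ends of the coding sequences are shown because they carry the site at which ATG4 acts and show how the precursors of LC3A and LC3B differ. Each run starts 3 codons before the glycine and ends with the stop codon, 5′ to 3′ on the plus strand of GRCm38, with the glycine codon in capitals, and lies in exon 4 of 4.
Map1lc3a, chr2:155277620-155277637: gaaaccttcGGCttctga
Map1lc3b, chr8:121596741-121596770: gagacattcGGGacagcaatggctgtgtaa
Gabarap, chr11:69994507-69994524: agcgtctatGGTctgtga
Gabarapl1, chr6:129541150-129541167: agtgtctatGGAaaatga
Gabarapl2, chr8:111952388-111952405: aacacttttGGCttctga
The glycine is residue 120 in LC3A and LC3B and residue 116 in the 3 GABARAP proteins. LC3B has 5 residues after it, and the other proteins have 1. Aligned as encoded proteins, LC3A and LC3B shared 81.8% of residues, GABARAP and GABARAPL1 shared 86.3%, and pairs across the LC3 and GABARAP subfamilies shared 30.8 to 41%. Among the proteases, ATG4A and ATG4B shared 58.3% and ATG4C and ATG4D 52.4%, against 34.3 to 37% for the other pairs. The ATG4 genes lie on the plus strand of GRCm38 at chrX:140956907-141164270 (Atg4a, 13 exons), chr1:93751500-93790610 (Atg4b, 13 exons), chr4:99193934-99259787 (Atg4c, 11 exons) and chr9:21265293-21277772 (Atg4d, 10 exons).

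Library totals ranged from 29507665 to 41197931 counts, and the 9 genes took 0.0339 to 0.0463% of them. Replicate 3 differed more from the other replicates than these did from each other in control and HD-het cells, where the variance between libraries was 10.3 to 20.5 times counting error in pairs that held it and 2.16 and 6.22 times in pairs that did not. Pairs of HD-homo libraries differed by 21.6 to 38.7 times counting error. Htt was highest in control and lowest in HD-homo cells (normalized CPM 103.7, 103.2 and 93.0 in control, 61.8, 64.0 and 61.1 in HD-het, 19.7, 21.7 and 19.2 in HD-homo). The striatal label was checked on markers of striatal projection neurons. The dopamine receptor genes Drd1 and Drd2 had 0 or 1 count in every library, and Adora2a, Tac1, Rgs9 and Bcl11b had 0 to 26 counts. Ppp1r1b had 1 to 3 counts in control and HD-het and 8 to 17 in HD-homo libraries, Penk had 8 to 116 counts, and the transcription factor gene Foxp1 was well detected at 87.9 to 179.1 normalized CPM. Summed microglia, astrocyte, oligodendrocyte and endothelium markers reached at most 2.42 normalized CPM in any library.

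The first question was whether the genes for the ATG8 proteins differed between the lines. Levels are normalized CPM, that is counts per 1000000 counts after TMM scaling, fold changes are on the log2 scale with their standard error (SE), and each adjusted p comes from the edgeR quasi-likelihood fit, corrected over all tested genes by Benjamini-Hochberg. In HD-het cells 4 of the 5 ATG8 genes rose and 1 fell against control, and in HD-homo cells 4 rose and Map1lc3b did not pass the test. Both comparisons used the same control libraries. With the ATG4 genes included, 8 of the 9 genes differed in HD-het cells (7 higher and 1 lower), where 65.1% of all tested genes were called, 33.8% higher and 31.4% lower. In HD-homo cells 4 of the 9 differed, all higher, where 58.6% of tested genes were called, 29.6% higher and 28.9% lower. Without control replicate 3 and HD-het replicate 3 together the counts were 6 and 4. The median log2 fold change of the 9 genes was 0.35 in HD-het and 0.12 in HD-homo cells, beside 0.025 and 0.0077 over all tested genes. Taken without sign, the median size was 0.35 and 0.20 for the 9 genes, smaller than the 0.40 and 0.32 over all tested genes.

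**Figure D1:**
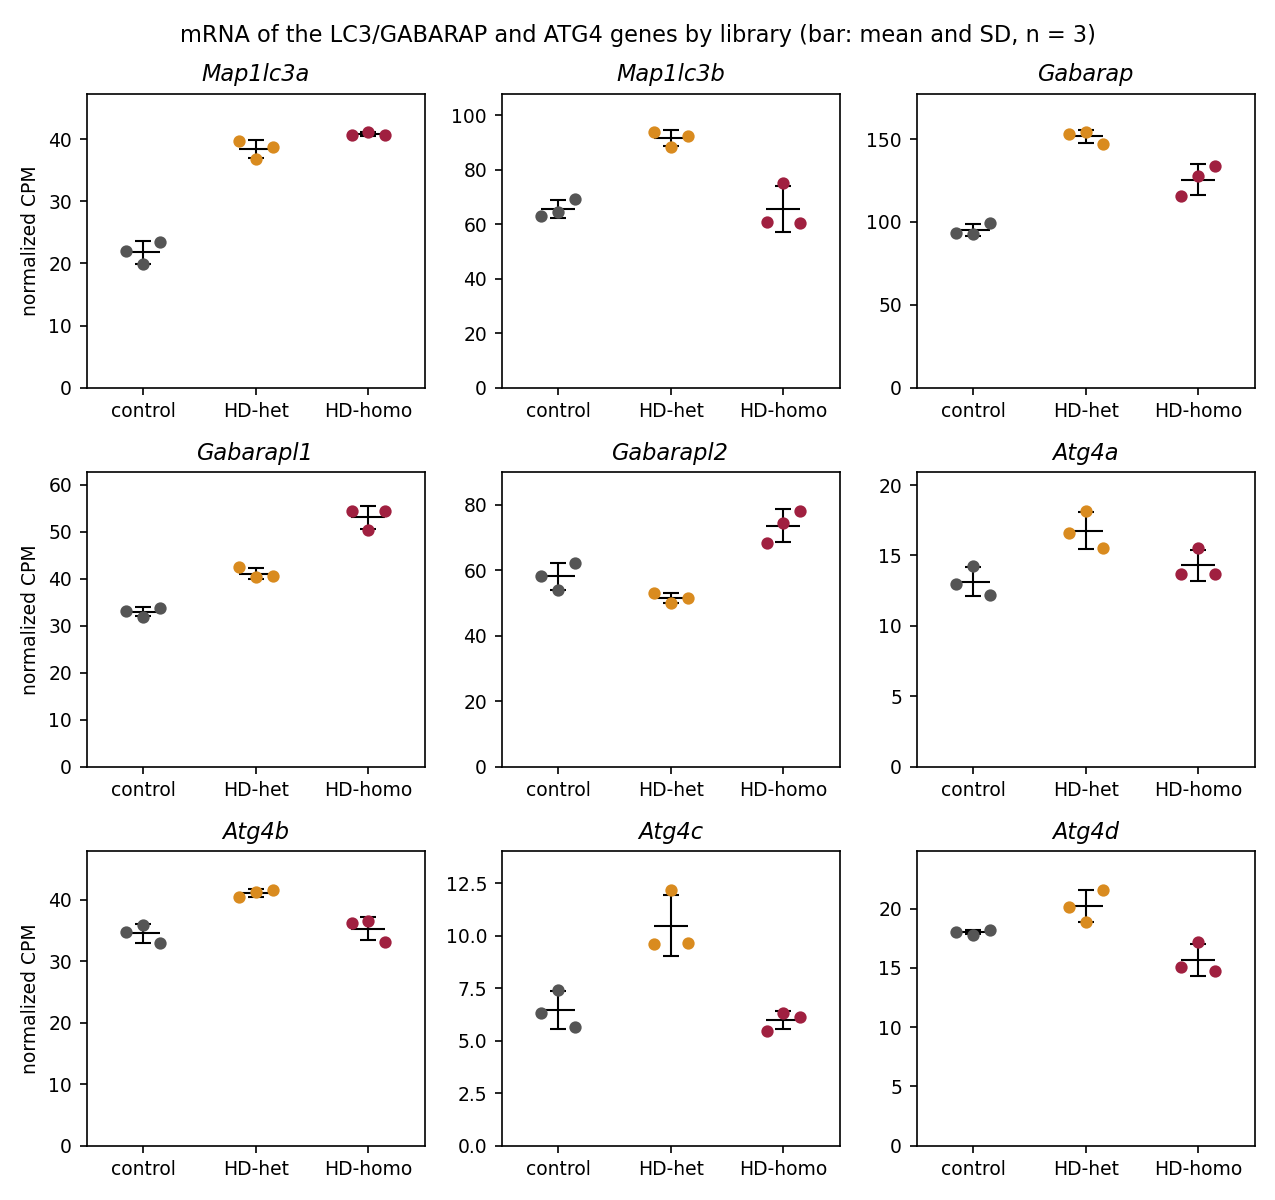
Level of each of the 9 genes (normalized CPM, linear axis from 0, a separate scale in each panel) in the 3 libraries of each line; points are libraries and bars give the mean and SD (n = 3). Map1lc3a was higher in both HD lines than in control, Map1lc3b and the 4 ATG4 genes had their highest mean in HD-het cells, and Gabarapl2 had its lowest mean there.

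Map1lc3a, which encodes LC3A, lay at 21.9, 19.9 and 23.4 normalized CPM in control libraries, at 39.6, 36.7 and 38.7 in HD-het libraries and at 40.7, 41.2 and 40.7 in HD-homo libraries. All libraries of both HD lines were above all control libraries. The log2 fold change against control was 0.82 (SE 0.071, adjusted p = 2.19e-06) in HD-het and 0.91 (SE 0.071, adjusted p = 8.54e-07) in HD-homo cells. Between the HD lines it was 0.09, with a 95% interval of −0.06 to 0.24 (adjusted p = 0.264). Map1lc3a had the widest span of line means of the 9 genes, 1.88-fold, and 64.9% of tested genes had a smaller span.

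Map1lc3b, which encodes LC3B, the form most often used to count autophagosomes, was higher in HD-het cells than in both other lines. Its levels were 63.1, 64.4 and 69.5 normalized CPM in control, 94.0, 88.4 and 92.6 in HD-het and 61.0, 75.2 and 60.5 in HD-homo libraries. The HD-het libraries did not overlap with those of either other line, whereas the HD-homo libraries lay on both sides of the control range. The log2 fold change was 0.48 (SE 0.084, adjusted p = 0.000395) in HD-het cells against control and −0.48 (SE 0.084, adjusted p = 0.00031) in HD-homo against HD-het cells. In HD-homo against control it was −0.00, with an interval of −0.19 to 0.18 (adjusted p = 0.994), and it was −0.11 (adjusted p = 0.154) without HD-homo replicate 2, the highest HD-homo library. Of the 50-base words of the Map1lc3b transcript 13.8% also occur in other annotated genes, mainly Gm6055 and Gm12727, and reads from these cannot be told apart. Zcchc14 lies on the opposite strand and shares 58 exon bases with Map1lc3b. Its mean was 162.9 normalized CPM in control, 153.5 in HD-het and 104.7 in HD-homo cells. The part of Zcchc14 in the Map1lc3b counts was not tested.

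Gabarap, whose product was first described as a partner of the GABA-A receptor, rose in both HD lines. It lay at 93.6, 92.5 and 99.2 normalized CPM in control, 153.4, 154.4 and 147.2 in HD-het and 115.4, 127.8 and 133.7 in HD-homo libraries. The ranges of the lines did not overlap, and HD-het was the highest. Fitted over all libraries, the log2 fold change was 0.67 (SE 0.063, adjusted p = 3.84e-06) in HD-het and 0.40 (SE 0.063, adjusted p = 0.000232) in HD-homo cells against control, and −0.27 (SE 0.063, adjusted p = 0.00231) between HD-homo and HD-het cells.

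Gabarapl1, the closest relative of Gabarap, increased in the order control, HD-het, HD-homo. Its levels were 33.1, 31.9 and 33.8 normalized CPM in control, 42.5, 40.3 and 40.5 in HD-het and 54.4, 50.3 and 54.3 in HD-homo libraries, without overlap. The log2 fold change against control was 0.32 (SE 0.061, adjusted p = 0.000749) in HD-het and 0.69 (SE 0.060, adjusted p = 2.25e-06) in HD-homo cells, and HD-homo exceeded HD-het cells by 0.37 (SE 0.060, adjusted p = 0.000193). An antisense gene, 1700101I11Rik, shares 377 exon bases with Gabarapl1 and had 0 counts in every library. Whether counting used strand is not stated, and without it reads of such partners cannot be told apart.

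Gabarapl2 encodes GATE-16, which is also known from transport within the Golgi, and was the one ATG8 gene with its lowest level in HD-het cells. It lay at 58.3, 54.1 and 62.3 normalized CPM in control, 53.1, 49.9 and 51.6 in HD-het and 68.3, 74.6 and 78.2 in HD-homo libraries. The HD-homo libraries were above all others, and the highest HD-het library was below the lowest control library by less than the spread within either line. The difference on the log2 scale was 0.34 (SE 0.070, adjusted p = 0.00159) in HD-homo cells and −0.18 (SE 0.071, adjusted p = 0.0466) in HD-het cells against control. The call in HD-het cells was lost without control replicate 1 (adjusted p = 0.101) or 3 (0.174), or without HD-het replicate 1 (0.0665), 2 (0.135) or 3 (0.0829). It was also lost with no filter on low counts (0.106) or with at least 10 counts in every library (0.0545), and 10 of 21 alternatives kept it. HD-homo exceeded HD-het cells by 0.52 (SE 0.070, adjusted p = 4.84e-05), and 17% of the 50-base words of this transcript occur in other annotated genes.

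**Figure D2:**
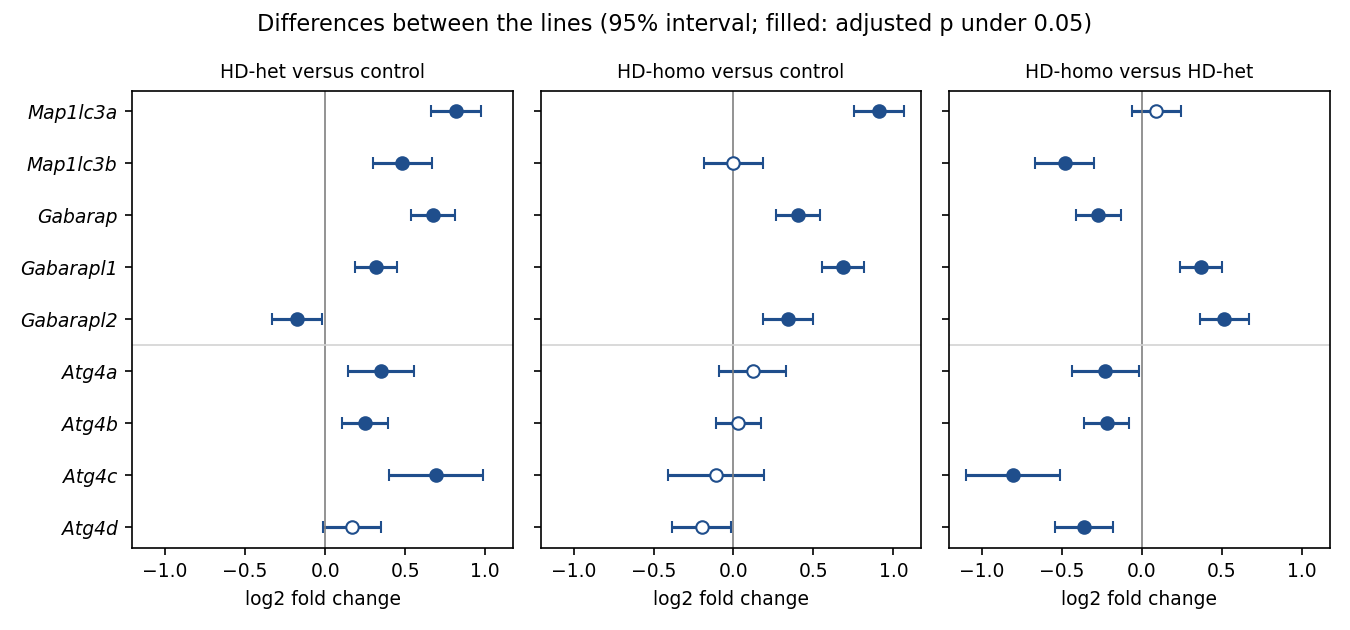
Log2 fold change of each gene in HD-het against control, HD-homo against control and HD-homo against HD-het cells, with its 95% interval; filled points passed an adjusted p of 0.05. In HD-homo cells against control the 4 ATG4 genes (lower rows) were not called, while in HD-homo against HD-het cells all 4 lay below 0.

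The next question was which ATG8 mRNA was the most abundant, for which counts were divided by transcript length (normalized CPM per kilobase, a level). Gabarap led in every line, at 70.4 ± 2.64 in control, 112.3 ± 2.88 in HD-het and 93.0 ± 6.91 in HD-homo cells (SD, n = 3). In control cells Gabarapl2 (34.7) and Map1lc3b (25.9) came next, followed by Map1lc3a (19.6) and Gabarapl1 (18.1), whose libraries overlapped. In HD-het cells Map1lc3b (36.2) and Map1lc3a (34.5) overlapped and both stood above Gabarapl2 (30.7) and Gabarapl1 (22.6). In HD-homo cells Gabarapl2 (44.0) was followed by Map1lc3a (36.7), and Gabarapl1 (29.1) and Map1lc3b (25.9) overlapped. Map1lc3a thus stood below Map1lc3b in control and above it in HD-homo cells on this scale. The longest annotated Map1lc3b transcript, of 4138 bases, would put Map1lc3b at 15.9, 22.1 and 15.8 in the 3 lines, below Map1lc3a in each. In every line the ATG4 genes were below all ATG8 genes, in the order Atg4b, Atg4a, Atg4d and Atg4c, with Atg4d and Atg4c overlapping in HD-het cells.

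Summed over the 5 genes, ATG8 mRNA was 168.7 ± 8.19 normalized CPM per kilobase in control, 236.3 ± 4.37 in HD-het and 228.7 ± 10.4 in HD-homo cells (SD, n = 3). The sums of both HD lines were above those of control in all libraries, and the HD lines overlapped. The GABARAP subfamily took 73.0% ± 0.305 of the sum in control, 70.1% ± 0.811 in HD-het and 72.6% ± 1.57 in HD-homo cells. The exact two-sided permutation test gave p = 0.10 for HD-het against control and for HD-homo against HD-het cells, the smallest p that 3 against 3 libraries allow, and 0.60 for HD-homo against control (adjusted over the 3 pairs, 0.15, 0.15 and 0.60). Without division by length the difference between HD-homo and control turned from −0.45 to 2.27 percentage points.

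**Figure D3:**
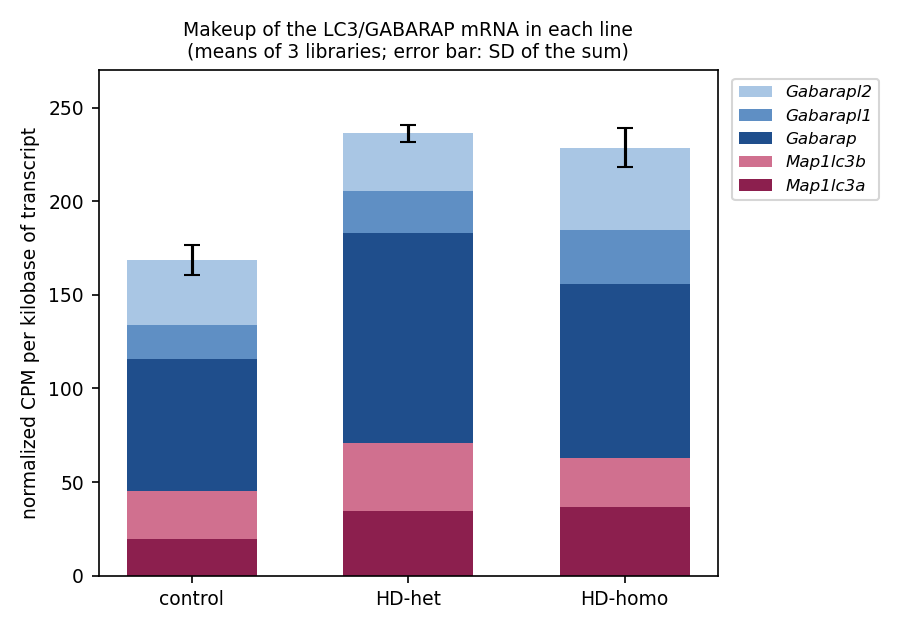
Summed ATG8 mRNA in each line (normalized CPM per kilobase of transcript, bars from 0), divided into its 5 genes; segments are means of 3 libraries and error bars the SD of the sum. The sum was 168.7 in control, 236.3 in HD-het and 228.7 in HD-homo cells, with Gabarap the largest segment in each.

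The LC3 genes were then set against each other within each library, since such a ratio does not depend on library scaling. Map1lc3b had 2.88, 3.24 and 2.97 counts per Map1lc3a count in control, 2.37, 2.41 and 2.39 in HD-het and 1.499, 1.83 and 1.49 in HD-homo libraries. The ratio was lower in every HD-het library than in every control library, and lower again in every HD-homo library. On the log2 scale it was 1.60 ± 0.0889 in control, 1.26 ± 0.0102 in HD-het and 0.68 ± 0.168 in HD-homo cells (SD, n = 3). HD-het cells were lower than control by a difference of −0.34, HD-homo cells lower than control by −0.92 and HD-homo lower than HD-het cells by −0.58. The exact two-sided permutation p was 0.10 for each of the 3 pairs, also after adjustment, and is the smallest this design can give, so that none can pass 0.05. In HD-het cells both genes were above control, whereas in HD-homo cells Map1lc3a was above control and Map1lc3b was not called. The proteins that these mRNAs encode differ in the tail that ATG4 removes, as shown in the sequences above.

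**Figure D4:**
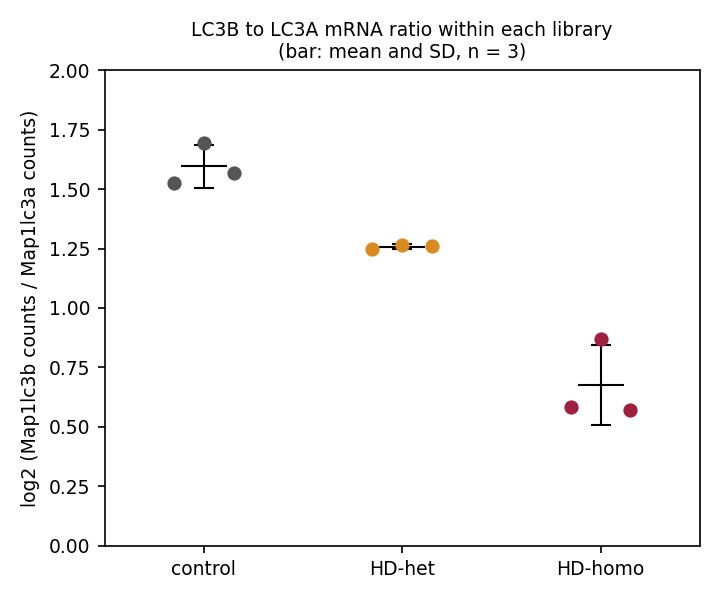
Log2 ratio of Map1lc3b to Map1lc3a counts in each library of the 3 lines; points are libraries and bars the mean and SD (n = 3). The ratio stepped down from 1.60 in control to 1.26 in HD-het and 0.68 in HD-homo cells, with no overlap between the lines.

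The ATG4 genes had their highest means in HD-het cells. Of the 4 genes, 3 rose in HD-het cells against control and Atg4d was not called, none passed the test in HD-homo cells against control, and all 4 were lower in the HD-homo line than in the HD-het line, where 65.1%, 58.6% and 71.6% of all tested genes were called. With DESeq2 none passed either (adjusted p of Atg4d 0.068), and at an unadjusted edgeR p under 0.05 1 of the 4, Atg4d, passed in HD-homo cells against control. Summed per kilobase, ATG4 mRNA was 19.3 ± 1.07 in control, 24.2 ± 0.863 in HD-het and 19.5 ± 1.11 normalized CPM in HD-homo cells (SD, n = 3). The 3 HD-het sums were above all others.

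Atg4b encodes the protease with the broadest activity on ATG8 precursors and was the most abundant of the 4. It lay at 34.8, 35.9 and 32.9 normalized CPM in control, 40.4, 41.3 and 41.6 in HD-het and 36.3, 36.5 and 33.1 in HD-homo libraries. The HD-het libraries stood above all others, and control and HD-homo overlapped. As a log2 fold change, this was 0.25 (SE 0.064, adjusted p = 0.00531) in HD-het cells and 0.03 (interval −0.11 to 0.17, adjusted p = 0.711) in HD-homo cells against control, and −0.22 (SE 0.064, adjusted p = 0.00941) between the HD lines. Without control replicate 3 and HD-het replicate 3 together, the adjusted p in HD-het cells was 0.0502.

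Atg4a, whose product acts mainly on the GABARAP subfamily, showed 13.0, 14.2 and 12.2 normalized CPM in control, 16.6, 18.2 and 15.5 in HD-het and 13.7, 15.6 and 13.7 in HD-homo libraries. HD-het libraries were above those of control, while the highest HD-homo library lay above the lowest HD-het library. The fitted log2 fold change was 0.35 (SE 0.095, adjusted p = 0.00712) in HD-het cells and 0.12 (interval −0.09 to 0.33, adjusted p = 0.296) in HD-homo cells against control. Between HD-homo and HD-het cells it was −0.23 (adjusted p = 0.0472), a call that was lost without control replicate 1 (adjusted p = 0.0662) or 2 (0.052), HD-het replicate 1 (0.0871) or 2 (0.168), or HD-homo replicate 1 (0.128) or 3 (0.108). It was also lost with library totals (0.093), DESeq2 (0.0502), no filter on low counts (0.132) and a fit of these lines alone (0.0632), and 8 of 21 alternatives kept it. The values of Atg4a are uncertain because 63.6% of its 50-base words also occur in an annotated copy, Atg4a-ps. The deposited counts have no row of that name, so the copy could not be examined.

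Atg4c, which encodes a protease with weak activity on ATG8 precursors in its full-length form, had the lowest level per length and the largest difference between the HD lines. Its levels were 6.35, 7.40 and 5.65 normalized CPM in control, 9.62, 12.2 and 9.67 in HD-het and 5.49, 6.35 and 6.14 in HD-homo libraries, from 167 to 400 counts a library. All HD-het libraries were above all others. The log2 fold change was 0.70 (SE 0.13, adjusted p = 0.000781) in HD-het cells and −0.11 (interval −0.41 to 0.19, adjusted p = 0.513) in HD-homo cells against control, and −0.81 (SE 0.13, adjusted p = 0.000213) between the HD lines.

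Atg4d, its closest relative, lay at 18.1, 17.8 and 18.2 normalized CPM in control, 20.2, 18.9 and 21.6 in HD-het and 15.1, 17.2 and 14.8 in HD-homo libraries. The order was HD-homo, control, HD-het without overlap, but the steps to control were small. The difference on the log2 scale was 0.17 (SE 0.082, adjusted p = 0.0975) in HD-het and −0.20 (SE 0.083, adjusted p = 0.0586) in HD-homo cells against control, and −0.36 (SE 0.082, adjusted p = 0.00197) between the HD lines. Without HD-homo replicate 2 the difference between HD-homo and control passed the test (−0.27, adjusted p = 0.0154). Kri1 lies on the opposite strand and shares 792 exon bases with Atg4d, and its mean was 39.5, 30.8 and 44.4 normalized CPM in the 3 lines (control, then HD-het, then HD-homo), so that it was lowest where Atg4d was highest. Its part in the Atg4d counts was not tested.

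In HD-homo against HD-het cells, 8 of the 9 genes differed, 2 higher (Gabarapl1 and Gabarapl2) and 6 lower, where 71.6% of tested genes were called, 36.0% higher and 35.6% lower. The median over the 9 genes was −0.23, beside 0.0017 over all tested genes. Taken without sign, the median size was 0.36 for the 9 genes and 0.46 over all tested genes. The distance of the heterozygous line from the midpoint of the homozygous lines was tested as HD-het against the mean of control and HD-homo on the log2 scale, and a gene off this midpoint can still lie between the lines, as the means of Map1lc3a did (0.36, adjusted p = 0.000221). Of the 9 genes, 7 were above this midpoint and Gabarapl2 was below it, where 70.2% of tested genes were off the midpoint, 36.8% above and 33.4% below. The distance was 0.75 (SE 0.11, adjusted p = 0.000105) for Atg4c, 0.48 (SE 0.071, adjusted p = 9.53e-05) for Map1lc3b and −0.35 (SE 0.062, adjusted p = 0.000402) for Gabarapl2. Gabarapl1 was not called, at −0.02 with an interval of −0.14 to 0.09 (adjusted p = 0.694). The highest mean was in HD-het cells for 6 genes, in HD-homo cells for 3 and in control cells for 0 of the 9. The same count was not made over all tested genes, so it cannot be read as particular to this family. Of 4 fibroblast or mural cell markers (Col1a1, Col1a2, Pdgfrb and Acta2), none was at 3 counts or fewer in every library of a line, and their sum was 4247 to 5287 normalized CPM in control, 11614 to 13813 in HD-het and 5669 to 6281 in HD-homo libraries, so that it was highest in the line in which those 6 genes were highest. Col1a1, Acta2 and Pdgfrb were each highest in HD-het libraries, whereas Col1a2 was lowest there, at 2.70 to 3.54 normalized CPM against 68.1 to 80.2 in control and 1411 to 1556 in HD-homo libraries. The sum of 4 markers of neurons and progenitors (Rbfox3, Map2, Tubb3 and Nes), of which Rbfox3 had 3 counts or fewer in every library, was also highest there, at 927.0 to 969.8 normalized CPM against 579.2 to 661.6 in control and 111.8 to 142.9 in HD-homo libraries. Most of that sum was Nes, at 820.5 to 856.6 in HD-het and 21.4 to 34.3 in HD-homo libraries, while the libraries of the lines overlapped for Map2. The part of either marker list in these results was not tested. In bulk samples a different share of cells and a different amount of RNA per cell cannot be told apart.

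The genes that act with the ATG8 proteins were counted by list. Of 9 genes of the conjugation machinery, 5 were higher and 2 lower in HD-het cells and 3 higher and 3 lower in HD-homo cells against control, where 65.1% and 58.6% of all tested genes were called. Atg10, the E2-like enzyme that joins ATG12 to ATG5, rose most in both, by 1.63 (SE 0.17, adjusted p = 9.4e-06) in HD-het and 1.04 (SE 0.18, adjusted p = 0.00042) in HD-homo cells on the log2 scale. Its level was low, from 28 to 131 counts a library. Atg5, its substrate, fell most in HD-het cells (−0.45, SE 0.061, adjusted p = 5.85e-05). Atg16l2, a relative of the ATG16L1 subunit that directs lipidation to the membrane, fell most in HD-homo cells (−0.57, SE 0.10, adjusted p = 0.000721), and was above control in HD-het cells (0.41, SE 0.10, adjusted p = 0.00432).

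Of 18 genes whose products bind LC3 or GABARAP, 7 were higher and 3 lower in HD-het cells and 8 higher and 4 lower in HD-homo cells. The 10 called in HD-het cells and the 12 called in HD-homo cells were near the 65.1% and 58.6% of all tested genes. Optn, which encodes the cargo receptor optineurin, rose most in both lines, from 15.1, 13.1 and 13.8 normalized CPM in control to 34.1, 33.8 and 31.8 in HD-het and 28.4, 35.4 and 42.4 in HD-homo libraries. As a log2 fold change, this was 1.25 (SE 0.13, adjusted p = 6.98e-06) and 1.34 (SE 0.13, adjusted p = 4.07e-06). Retreg1, a receptor for turnover of the endoplasmic reticulum, fell most in HD-het cells (−0.54, SE 0.12, adjusted p = 0.00245), and Plekhm1, an adaptor for fusion with lysosomes, fell most in HD-homo cells (−0.33, SE 0.071, adjusted p = 0.00206).

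Of 10 regulators of these genes or of ATG4, 3 were higher and 1 lower in HD-het cells and 3 higher and 2 lower in HD-homo cells. Beside the 65.1% and 58.6% of all tested genes called, a list of 10 is too short to set these shares apart. The transcription factor gene Mitf rose most in HD-homo cells (1.38, SE 0.17, adjusted p = 4.37e-05). Its level was low, at 57, 57 and 47 counts in control and 125, 187 and 165 in HD-homo libraries. Rnf5, a ubiquitin ligase known to act on ATG4B, fell most in HD-homo cells (−0.46, SE 0.087, adjusted p = 0.000847). Foxo3, a transcription factor with autophagy genes among its targets, fell most in HD-het cells (−0.41, SE 0.092, adjusted p = 0.00235) and was higher in HD-homo cells (0.27, SE 0.091, adjusted p = 0.0262). Stk26, a kinase known to phosphorylate ATG4B, was the most increased in HD-het cells (adjusted p = 9.94e-05), but its counts were 1, 1 and 0 in control against 19, 14 and 31 in HD-het libraries, which are too few for a fold. Over the 3 lists together 21 of 37 genes differed in HD-het and 23 of 37 in HD-homo cells against control, and the latter count was 15 without control replicate 2. In HD-homo against HD-het cells 20 of 37 differed. With 65.1%, 58.6% and 71.6% of all tested genes called in these comparisons, the counts were near or below the background.

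**Figure D5:**
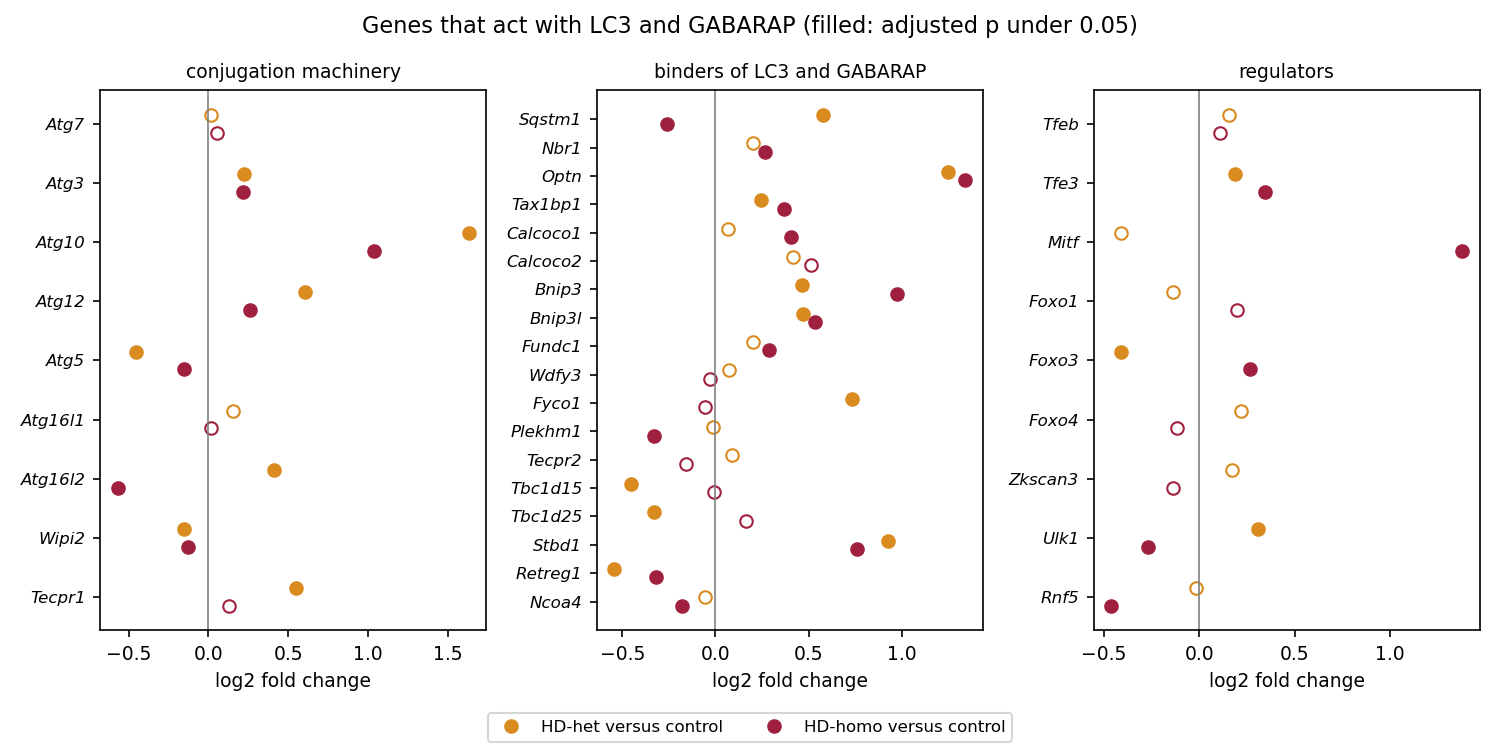
Log2 fold change of the genes of the 3 lists in HD-het (orange) and HD-homo (red) cells against the same control libraries; filled points passed an adjusted p of 0.05, the axes differ between panels, and Stk26, with 2 counts in all control libraries together, is not drawn. Atg10 and Optn lay above 1 in both HD lines, and Mitf did so in HD-homo cells.

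For the 3 genes whose line means spanned the widest, the genes with the most similar pattern were those with the smallest root mean square difference of centred log2 levels over the 9 libraries. Before the logarithm 0.5 was added to each normalized CPM, which shrinks the differences of genes at low levels. Such patterns were common, as 209 genes lay within 0.2 of Map1lc3a, 912 within 0.2 of Gabarapl1 and 620 within 0.2 of Atg4c. Nearest to Map1lc3a (difference 0.0340) was Nat9, at a mean of 4.53 normalized CPM in control, 8.65 in HD-het and 8.91 in HD-homo cells, followed by Tbc1d7 (0.0533), a subunit of the TSC complex, and Pwwp2b (0.0792). Nearest to Gabarapl1 were St3gal2 (0.0412), Dtnbp1 (0.0456) and Pole4 (0.0540). Nearest to Atg4c were Trappc6b (0.0899), Acvr2a (0.0954) and Fyco1 (0.0962). Fyco1, which encodes an LC3-binding adaptor for autophagosome transport along microtubules, is itself among the 18 binders, and its mean was 22.01, 36.6 and 21.2 normalized CPM. Among the 9 genes, Atg4a and Atg4b were the most alike (0.0842) and Gabarapl2 and Atg4c the least (0.552).

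Promoter windows of RefSeq, short stretches around the transcription start, were found for 8 of the 9 genes, in 10 windows of 32851. Searched on both strands, TCACGTGA, the core of the element bound by TFEB, was in 0 of the 10 windows and in 0.974% of all windows. The E-box CACGTG, which lies within it, the FOXO motif GTAAACA and the interferon-type repeat GAAANNGAA were also in 0 of the 10, against 7.15, 3.65 and 8.56% of all windows. At shares this low, 10 windows are too few to read 0 as a lack of these motifs. The GC box GGGCGG was in windows of 6 genes (Atg4a, Atg4b, Atg4d, Gabarapl1, Gabarapl2 and Map1lc3b) and in 35.7% of all, and CCAAT was in those of Atg4a and Atg4d and in 37.4% of all. These matches describe letters in a short window and carry no measurement of binding.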

How the data were processed

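Poly(A) RNA from 3 mouse striatal cell lines was sequenced from strand-marking libraries, and the authors deposited raw counts per gene symbol, which are whole numbers with no normalization. The submitters' processing notes list cutadapt, Bowtie 1.1.2, RSEM 1.3.0 and DESeq2, and the builds GRCm38.p5 and mm10, without roles. Whether counting used strand is not given in the sources used here. All 9 libraries were fitted together with edgeR 4.0.16 (R 4.3.3): TMM factors, filterByExpr with a minimum count of 10, a quasi-likelihood test and Benjamini-Hochberg adjustment over all 13508 tested genes within each comparison, with adjusted p under 0.05 as the threshold. Standard errors and 95% intervals came from the F statistic. DESeq2 1.42.0 was an alternative. Normalized CPM was the count per 1000000 counts on tested genes after TMM scaling. Division by length used 1 annotated transcript per gene of GENCODE M21 on GRCm38. Ratios and shares within a library were compared by exact two-sided permutation tests (SciPy 1.17.1). Library totals were 29507665 to 41197931 counts. The study's methods describe experiments in general as repeated, but neither they nor the labels say of these 3 libraries of a line that they came from separate cultures, so p-values measure only the spread between these libraries, which may be technical.

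The members, gene lists and tests were chosen with earlier results of these data known. All members were named, along with the genes of highest and lowest log2 fold change past the threshold in each pathway list and each HD line against control, and the 3 genes with the smallest root mean square difference from each of the 3 members whose line means spanned the widest. Alternatives covered scaling, filter, test, prior count, threshold, depth, the replicate block and left-out libraries.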

Additional observations from a re-analysis of the deposited data

Results flagged for a closer look

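Gabarapl2 was called in opposite directions in the HD lines against the same control libraries, but the call in HD-het cells was not stable. Its log2 fold change was −0.18 (SE 0.071, n = 3 libraries a line, edgeR adjusted p = 0.0466) in HD-het cells and 0.34 (SE 0.070, edgeR adjusted p = 0.00159) in HD-homo cells. The difference between the HD lines was tested directly and was 0.52 (SE 0.070, edgeR adjusted p = 4.84e-05), with every HD-homo library above every HD-het library. The adjusted p of that difference lay between 1.01e-09 and 0.000446 over 21 alternatives, while that of HD-het against control lay between 0.0259 and 0.228. The call in HD-het cells was kept by 10 of the 21 alternatives.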

How the results depend on the processing

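Over 19 settings that refit the data, 645 of 675 member fold changes kept their direction and their side of the threshold, 21 lost significance, 1 gained it and 8 changed sign. The sign changes all concerned HD-homo against control. For Map1lc3b the log2 fold change was 0.016 with library totals only, 0.0067 with at least 10 counts in every library, 0.04 without control replicate 3 and HD-het replicate 3 together, and −0.11 to 0.052 with single libraries left out. For Atg4b it was −0.0057 without those 2 libraries together and −0.0051 to 0.072 with single libraries left out. Atg4b also missed the threshold in HD-het against control without those 2 libraries (log2 fold change 0.21, edgeR adjusted p = 0.0502). The GABARAP-subfamily share in HD-homo minus control was 2.27 percentage points with no division by length and −1.34 to 0.142 with single libraries left out.

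A further limit of 0.5 on the size of the log2 change left 3 members in HD-het against control, 2 in HD-homo against control, 2 in HD-homo against HD-het and 1 off the midpoint. The share of all tested genes at that limit was not computed, so these counts have no background beside them. With single libraries left out, the counts of members were 7 to 8, 4 to 5, 7 to 8 and 8, and the count of pathway genes in HD-homo against control was 15 to 22. The cause of these shifts was not tested.

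Replicate numbers are shared between the lines but are not stated to mark a shared culture or day. With the replicate number as a block, 8, 4, 8 and 8 members passed in the same order, no member call of 36 changed, and the pathway counts were 22, 23 and 22. Deviations of libraries correlated best with their own number in 8 of 9 cases, but these correlations were low. Those of the same number ranged from 0.068 to 0.245 in HD-het against control and from 0.023 to 0.040 in HD-homo against control. Between the HD lines they ranged from 0.032 to 0.202, and in no comparison did every pair exceed 0.1.

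Atg4c had the fewest counts of the 9 genes, 167 to 400 a library, and its calls held under the alternatives run. With every library thinned to the smallest total, Gabarapl2 in HD-het against control (adjusted p = 0.0679) and Atg4a in HD-homo against HD-het (0.0948) missed the threshold.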
